A study of Mus musculus with 4 samples.

Results

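The PIWI family genes of the mouse, Piwil1, Piwil2 and Piwil4, gave 503 of the 4906138 distinct MILI-bound sequences listed for testes at 14 days post partum, or 0.0103%. Their sequences were those that matched, base for base in sense or antisense, a GENCODE M21 transcript of 1 of these 3 genes and of no other gene. Of the 503, 502 were sense and 1 was antisense. MILI-bound RNA had been immunoprecipitated from testis lysates of C57BL/6 mice, in 2 libraries from Tdrd9+/- and 2 from Tdrd9-/- animals, to compare the piRNAs of MILI with and without TDRD9, a helicase of the piRNA pathway. The controls are heterozygous and so keep 1 intact Tdrd9 allele. RNAs of about 28 to 30 nt were cut from a gel, per the labels. The table pools the 4 libraries, with no read counts and no library names, so the depth per library is unknown, the genotypes were not compared here, and no replicate error exists. Intervals below are exact 95% intervals (Clopper-Pearson for shares, Poisson for ends per kb) and cover counting error over distinct ends only.

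PIWI proteins are the germline branch of the Argonaute family. They carry piRNAs, small RNAs that mostly begin with uridine, and in the mouse testis they silence retrotransposons, in part by slicing matching transcripts. Piwil2 encodes MILI, the protein precipitated here, which is present in fetal and postnatal germ cells. Piwil4 encodes MIWI2, the nuclear partner of fetal gonocytes that directs DNA methylation. Piwil1 encodes MIWI, which appears as spermatocytes enter pachytene and persists in spermatids. Messenger RNAs are themselves cut into piRNAs, often in the 3′ untranslated region, so a PIWI messenger RNA can be both the source of a PIWI protein and of the small RNAs that protein carries.

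The sequences below are those at the 5′ ends shared by the most sequences. They are shown, in the DNA letters of the table, because the report turns on how each 5′ end is used; a 5′ T (uridine in the RNA) is in capitals. Piwil2 is shown by its 5 fullest ends, from exon 2 (coding), exon 7 (coding) and exon 23 (3′ untranslated region, 3 ends).
Piwil2 end at transcript nt 340: Tgtttagaaaaccagaagactccagcccac
Piwil2 end at transcript nt 995: Tggaaacgtcactgcttttgatggctcta
Piwil2 end at transcript nt 3997: Tggaaaggattcagcagacctaggaacat
Piwil2 end at transcript nt 4369: Tatgttttggtgtggtggatggatggta
Piwil2 end at transcript nt 4371: Tgttttggtgtggtggatggatggtagg
In mm9, these lie on the minus strand at chr14:70826334-70826363, chr14:70810970-70810998, chr14:70773175-70773203, chr14:70772804-70772831 and chr14:70772802-70772829. Each of the 5 ends was shared by 5 sequences of different length, for example 25, 27, 28, 29 and 30 nt at nt 340 and 24 to 28 nt at nt 4369. All 5 began with uridine, and the last pair started 2 nt apart.

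For Piwil4, 3 of its 4 ends with more than 1 sequence are shown, from exons 7 and 19 (coding) and exon 20 (3′ untranslated region).
Piwil4 end at transcript nt 992: Tgactgatctctgcctcagaactggcatg
Piwil4 end at transcript nt 2463: Tgacttctacctgatcagccagactgcta
Piwil4 end at transcript nt 2740: acggcttgagactccgaaagcagtggctc
These lie on the minus strand at chr9:14531829-14531857, chr9:14507585-14507613 and chr9:14506758-14506786, and were shared by 3, 3 and 2 sequences. The end at nt 2746, also in exon 20, was tied with the last at 2 sequences, and the more 5′ of the pair is shown. No Piwil1 end had more than 1 sequence, so its 3 most 5′ ends are shown, from exons 8 and 9 (coding, plus strand).
Piwil1 end at transcript nt 933: Tgaatttgcaacaaattggacggaattat
Piwil1 end at transcript nt 935: aatttgcaacaaattggacggaatta
Piwil1 end at transcript nt 1047: acaacatcatgctctgcacagacgtcagc
They lie at chr5:129249116-129249144, chr5:129249118-129249143 and chr5:129249702-129249730.

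Piwil2 was well represented, and Piwil4 and Piwil1 were sparse. Piwil2 (ENSMUSG00000033644.5) had 452 sense sequences at 292 distinct 5′ ends, all on the minus strand of chromosome 14 between mm9 positions 70772331 and 70829183. Piwil4 (ENSMUSG00000036912.17) had 28 sequences at 22 ends, all on the minus strand of chromosome 9 between 14506259 and 14545002. Piwil1 (ENSMUSG00000029423.10) had 22 sequences at 22 ends, all on the plus strand of chromosome 5 between 129249116 and 129261270. All 3 genes had at least 1 sense sequence, as did 72.6% of 21951 protein-coding genes. All 3 had 10 or more, as did 56.3%. Piwil2 also passed 100 sense sequences, as did 24.9%.

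Per length of the longest transcript (4916 nt for Piwil2, 3304 nt for Piwil4 and 4016 nt for Piwil1), Piwil2 had 59.4 ends per kb (52.8 to 66.6). Piwil4 had 6.66 (4.17 to 10.1) and Piwil1 had 5.48 (3.43 to 8.29). Piwil2 was thus 8.92 times as dense as Piwil4 (5.78 to 14.5) and 10.8 times as dense as Piwil1 (7.03 to 17.6), beyond counting error in both cases. Piwil4 and Piwil1 did not separate, at a ratio of 1.22 (0.642 to 2.30). Piwil2 ranked 1286th of 21951 protein-coding genes in ends per kb, above 94.1% of them. Piwil4 lay above 51.9% and Piwil1 above 49.4%, on either side of the median of 5.74 ends per kb, a list in which genes without a sequence count as 0. Among genes with a sequence the median was 13.68, and both lay below it. In whole testis, few cells that hold a messenger RNA and little of it in each cell cannot be told apart, and the level of the messenger RNAs was not measured here.

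**Figure D1:**
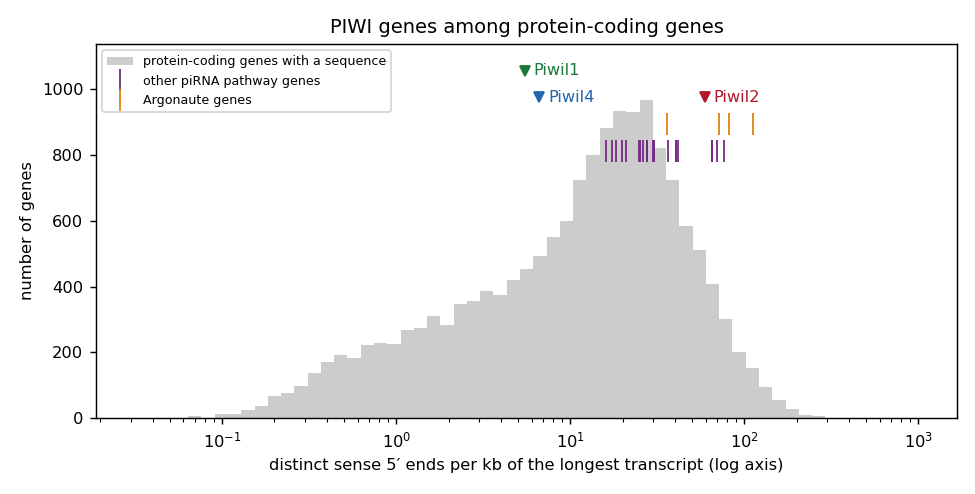
Number of protein-coding genes (y axis) by density of distinct sense 5′ ends, per kb of transcript (x axis, log scale), for genes with a sequence. Triangles mark the PIWI genes and ticks the other piRNA pathway genes (purple) and the Argonaute genes (orange). Piwil2 lies at 59.4 in the right flank, and Piwil4 at 6.66 and Piwil1 at 5.48 lie left of every pathway gene.

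The other genes of the piRNA pathway were more alike than the PIWI genes among themselves. Of 22 listed pathway genes (tudor proteins, helicases, nucleases and cofactors), 22 had 10 or more sense sequences and 16 had 100 or more. Their median was 28.8 ends per kb (16.1 to 76.0). Piwil2 lay above 18 of them. The 4 above it were Fkbp6, a co-chaperone of the pathway, with 76.0 ends per kb, Exd1 with 69.7, the helicase gene Mov10l1 with 65.3 and Mael with 65.1. Mael was the pathway gene nearest to Piwil2. Piwil4 and Piwil1 lay below all 22, the nearest being Tdrd6, a tudor protein gene of the chromatoid body, at 16.1. The Argonaute genes Ago1 to Ago4, whose proteins carry microRNAs, had 113, 71.4, 81.4 and 35.8 ends per kb. Piwil2 therefore fell between Ago4 and Ago2, and Piwil4 and Piwil1 fell below all 4 Argonaute genes.

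Markers of the tissue stood as follows, counted in sense sequences. The 5 germ cell markers Ddx4 (also a pathway gene), Dazl, Sycp3, Stra8 and Kit had 140 to 288 sequences each, with a median of 56.8 ends per kb, near the value of Piwil2. Among 5 spermatid genes, Tnp1 had 19 sequences and Prm1, Prm2, Tnp2 and Acrv1 had 0. The 5 Sertoli cell genes had 0 to 27, with Rhox5 at 0. Of the 5 Leydig cell genes, Star had 247 sequences and Cyp17a1, Insl3 and Hsd3b1 had 0. The 2 myoid genes had 1 and 5, and the 3 macrophage genes 0 to 12. Antisense sequences are not in these counts. There were 34 for the spermatid genes, 24 of them for Prm1. The Sertoli cell genes had 51, of which 37 were for Amh, and the Leydig cell genes 108, of which 105 were for Star. The macrophage genes had 15, the myoid genes 2 and the germ cell markers 1. The part of cell composition in the PIWI values was not tested.

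The 3 transcripts could be told apart by these sequences. The longest run of bases shared between Piwil4 and Piwil1 was 22 nt, between Piwil2 and Piwil4 14 nt, and between Piwil2 and Piwil1 12 nt. Piwil4 and Piwil1 sequences were 25 nt or longer, and 0 sense sequences assigned to the 3 genes matched a gene searched later. A sequence shared with a gene searched earlier would be assigned to that gene and is not counted here. Between the first and last match of each gene, 0 listed sequences matched another gene. All 502 sense sequences lay on the chromosome of their gene.

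Piwil2 was sampled along its whole messenger RNA. Ends ran from nt 105 to nt 4843 of the 4916-nt transcript, and the sequences covered 53.5% of its bases. Each of its 25 windows of 200 nt held at least 1 end (median 10, highest 23). Another 4 Piwil2 sequences matched only other Piwil2 transcripts. Their ends count in the 59.4 ends per kb, and 1 of them sets the upper mm9 limit of 70829183. The median step from an end to the next was 3 nt, and 88 of 288 steps were 1 nt. Ends fell in 22 of 23 exons. Exon 8 (125 nt) had none. Exon 22 (108 nt) was the densest, with 13 ends, followed by exon 16 (189 nt) with 19. The last exon held 145 ends on 1960 nt. The densest stretch of 20 nt lay in the 3′ untranslated region from nt 3760 to nt 3779, where 15 positions were used as ends by 33 sequences. Only 4 of those 15 ends began with uridine.

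**Figure D2:**
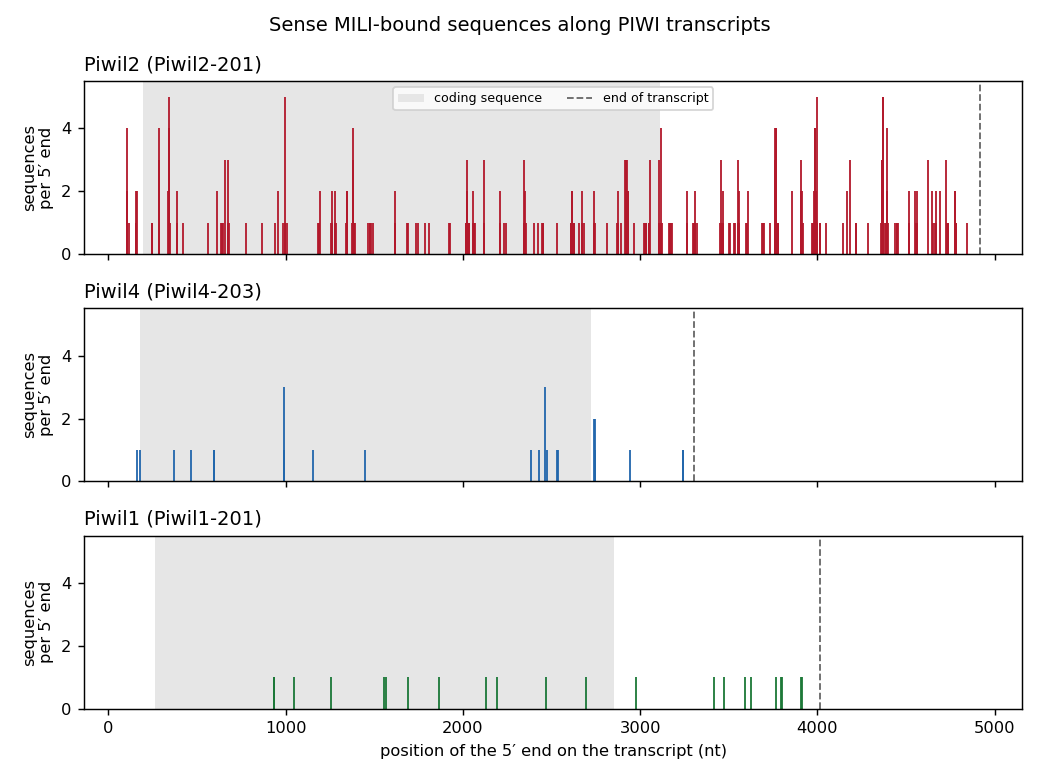
Sequences sharing each 5′ end (y axis) against the position of that end on the transcript in nt (x axis) for Piwil2, Piwil4 and Piwil1. Grey marks the coding sequence and the dashed line the end of the transcript; Piwil2 ends fill the transcript and reach 5 sequences, Piwil4 has a gap from nt 1449 to nt 2384, and Piwil1 has no end before nt 933.

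Piwil4 and Piwil1 had long stretches without an end. In Piwil4, 9 of 20 exons held an end, the sequences covered 12.6% of bases, and the widest gap, 935 nt, ran from nt 1449 to nt 2384 and took in exons 12 to 17. Right after that gap, exons 18 and 19 held 2 and 4 ends, from nt 2384 to nt 2535. In Piwil1, 10 of 22 exons held an end and the sequences covered 12.5% of bases. Exons 1 to 7 of Piwil1 had none, and the first end stood at nt 933. With 22 ends on each transcript, gaps of this kind are not shown to be free of piRNAs.

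By region of the messenger RNA, no gene had a share of ends in the 3′ untranslated region beyond counting error once exon junctions were set aside. Piwil2 had 71.5 ends per kb of 3′ untranslated region (59.7 to 85.0), 51.8 per kb of coding sequence (43.9 to 60.7) and 45.7 per kb of 5′ untranslated region (20.9 to 86.7). Of its ends in the coding sequence and 3′ untranslated region, 129 of 280 (46.1%, 40.1 to 52.1%) lay in the latter, which makes up 38.2% of those bases. Piwil1 had 10 of 22 (45.5%, 24.4 to 67.8%) on 31.03% of the bases, and Piwil4 had 6 of 21 (28.6%, 11.3 to 52.2%) on 18.5%. Only for Piwil2 does the interval not reach the share of length. Nearly all junctions lie in the coding sequence, and listed sequences hardly cross them. Counting only starts whose 27-nt window stays inside 1 exon, 129 of 271 Piwil2 ends (47.6%, 41.5 to 53.7%) lay in the 3′ untranslated region, which then makes up 42.9% of the starts, inside the interval. Per kb of such starts Piwil2 had 72.6 ends in the 3′ untranslated region (60.6 to 86.3) and 59.9 in the coding sequence (50.5 to 70.6). The shares of Piwil1 and Piwil4 stayed at 45.5% and 28.6%, against 35.2% and 21.3% of the starts. Piwil1 had 0 ends in its 262-nt 5′ untranslated region, which allows up to 14.1 per kb. No pair of the 3 genes passed the test for a difference in this share (Fisher's exact test, 2-sided, adjusted p from 0.967 to 1).

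Lengths overlapped in the 3 genes. The mean was 27.1 nt for Piwil2 (SD 1.36 over 452 sequences), 27.4 nt for Piwil4 (SD 1.37 over 28) and 26.95 nt for Piwil1 (SD 1.25 over 22). Piwil2 ran from 22 to 30 nt, Piwil4 from 25 to 30 nt and Piwil1 from 25 to 29 nt. The commonest length was 27 nt in Piwil2 (30.97%), 28 nt in Piwil4 (28.6%) and 26 nt in Piwil1 (45.5%). In the order Piwil2, Piwil4 and Piwil1, 72.8%, 67.9% and 77.3% of sequences were 26 to 28 nt long. Those that fell inside the gel cut, 28 to 30 nt, were 36.1%, 50% and 31.8%.

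A 5′ uridine, the mark of primary piRNAs, was carried far more often than the transcripts hold uridine. In Piwil2 it was 164 of 292 ends (56.2%, 50.3 to 61.9%), against 25.2% uridine in the transcript. In Piwil4 it was 18 of 22 (81.8%, 59.7 to 94.8%), against 26.2%. In Piwil1 it was 15 of 22 (68.2%, 45.1 to 86.1%), against 22.4%. The excess over the transcript was 2.23-fold, 3.13-fold and 3.05-fold. The lower share of Piwil2 against Piwil4 gave p = 0.0237 in Fisher's exact test, but adjusted p = 0.284 over the 12 comparisons made between these genes, so it did not hold up. Among 3960 protein-coding genes with 100 or more ends, the median excess was 2.50-fold, and Piwil2 lay above 21.3% of them. Among 2059 genes with 15 to 30 ends, the median 5′ uridine share was 70.8%. Their 5th and 95th percentiles were 46.2% and 90%, and the shares of Piwil4 and Piwil1 lay between these.

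**Figure D3:**
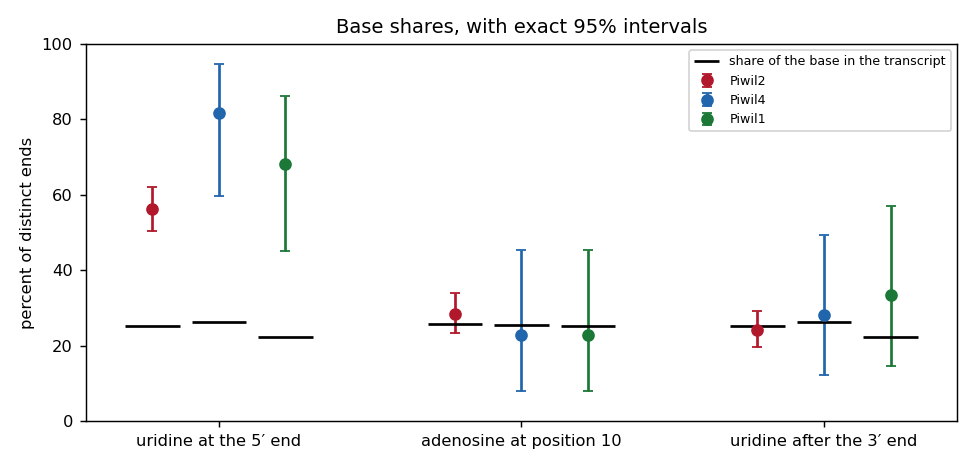
Percent of distinct ends (y axis) with uridine at the 5′ end, adenosine at position 10 or uridine directly after the 3′ end, for Piwil2, Piwil4 and Piwil1, with exact 95% intervals; black bars give the share of that base in the transcript. For the 5′ uridine all 3 intervals lie above the bars, and for the other measures all intervals hold the bar.

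Neither the mark of slicing nor that of stepwise cleavage rose above the share of its base in the transcript beyond counting error. Adenosine at position 10, which secondary, slicer-made piRNAs tend to have, stood in 83 of 292 Piwil2 ends (28.4%, 23.3 to 34.0%), against 25.7% adenosine in the transcript. It was carried by 5 of 22 ends in Piwil4 and 5 of 22 in Piwil1 (22.7%, 7.82 to 45.4% each), against 25.4% and 25.1%. Over all protein-coding genes 30.3% of ends carried it. All 3 intervals hold that value as well as the transcript share, so they cannot tell the 2 levels apart. Stepwise cutting of a precursor before uridines can leave a uridine directly after the 3′ end. No value over all genes was set beside this measure, so stepwise cleavage cannot be judged from it. Such a uridine followed 81 of 335 distinct 3′ ends of Piwil2 (24.2%, 19.7 to 29.1%), against 25.2%. It followed 7 of 25 in Piwil4 (28.0%, 12.1 to 49.4%) and 7 of 21 in Piwil1 (33.3%, 14.6 to 57.0%). No pair of the 3 genes passed the test for a difference in either measure (Fisher's exact test, adjusted p from 0.967 to 1).

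In Piwil2 the 5′ uridine was more frequent at ends shared by more sequences. It was carried by 94 of 196 ends with a single sequence (48.0%, 40.8 to 55.2%), 35 of 55 with 2 (63.6%, 49.6 to 76.2%), 19 of 23 with 3 (82.6%, 61.2 to 95.05%) and 16 of 18 with 4 or more (88.9%, 65.3 to 98.6%). The intervals of the first and the last class do not overlap. Over all protein-coding genes the same classes had 56.3%, 71.1%, 80.1% and 88.4%, in the same order. The Piwil2 interval does not reach the value of all genes at ends with a single sequence, and holds it in the other classes. Ends with a single sequence made up 67.1% of Piwil2 ends, 66.8% over all protein-coding genes, 81.8% in Piwil4 and 100% in Piwil1. Piwil2 had 1.55 sequences per end, close to the median of 1.51 among genes with 100 or more ends. Its 452 sequences used 335 different 3′ ends against 292 different 5′ ends.

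**Figure D4:**
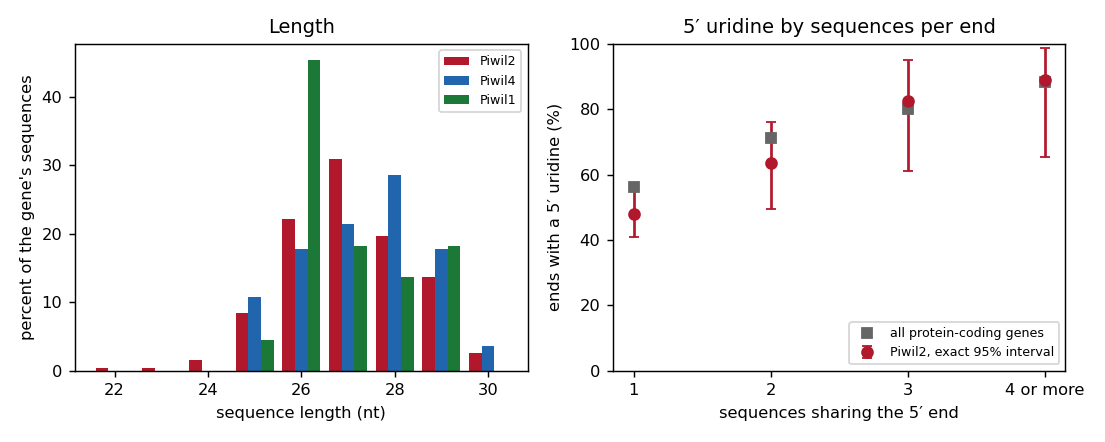
Left, percent of each gene's sequences (y axis) by length in nt (x axis). Right, percent of ends with a 5′ uridine (y axis) by the number of sequences sharing the end (x axis), for Piwil2 with exact 95% intervals and for all protein-coding genes; both are higher at fuller ends, Piwil2 going from 48.0% to 88.9%.

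Antisense sequences were almost absent. The 503 held 1 antisense sequence, and Piwil4 and Piwil1 had 0. It was a 25-nt sequence opposite nt 1404 to 1428 of Piwil2, in coding exon 11, at chr14:70801974-70801998 on the plus strand, and began with G rather than uridine. It is shown as the only member read from the other strand.
Piwil2 antisense: gaagcttgctgcactcgtcctggaa
It overlapped 12 sense sequences, of which 0 formed the 10-nt overlap of 5′ ends left by slicing. Of the genes with 100 or more ends, 49.0% had 1 antisense sequence or none, and the median was 2. Of genes with 15 to 30 ends, the class of Piwil4 and Piwil1, 41.2% had 0. Over the whole list, 135979 sequences were antisense to 1 gene and no other, beside 2352332 that were sense to 1 gene and no other.

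Few of the sequences crossed an exon junction. Windows of 27 nt that cross an exon junction make up 11.7% of those in Piwil2, 15.1% in Piwil4 and 13.7% in Piwil1. Only 12 Piwil2 sequences, and 0 of the others, crossed a junction. They did so by 1 or 2 nt, 7 at their 5′ side and 5 at their 3′ side. Each listed position is an unbroken stretch of the genome as long as the sequence, a form that leaves no room for spliced piRNAs. The values per kb therefore count ends outside those windows almost alone.

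Per kb, the introns between the first and last match of each gene gave few sequences. Between the first and last Piwil2 match, 43 same-strand sequences at 39 ends matched no transcript, 42 of them clear of the exons that could be placed, and 1 lay on the opposite strand. That is 0.751 ends per kb of intron against 59.4 per kb of transcript. A 5′ uridine was carried by 30 of the 39 (76.9%, 60.7 to 88.9%). Piwil4 had 12 such same-strand sequences at 12 ends, beside 22 ends on its transcript, and 8 of the 12 lay in the interval between exons 4 and 7. That is 0.339 ends per kb of intron against 6.66 per kb of transcript. Piwil1 had 1 such sequence, but its span starts at nt 933 in exon 8, so its earlier introns were not covered. Within these spans 0 sequences matched another gene.

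Beyond the annotated end of Piwil2 the sequences went on. Placed by the sequences of its last exon, the transcript ends at mm9 position 70772284 of chromosome 14. Within 500 nt past that position lay 37 same-strand sequences at 18 ends, and 0 on the opposite strand. Within 1000 nt there were 49 sequences at 26 ends (26 ends per kb, 17.0 to 38.1), against 71.5 per kb in the 3′ untranslated region itself. Within 5000 nt there were 110 at 70 ends, and within 20000 nt 154 at 108 ends, still with 0 on the opposite strand. Of those 108 ends, 82 began with uridine (75.9%, 66.7 to 83.6%). Of the 154 sequences, 153 match no transcript of any gene, and none of the 154 is counted among the 503. The fullest end in the first 500 nt, 126 nt past the transcript, had 4 sequences of 26 to 29 nt and lies at chr14:70772130-70772158 on the minus strand.
After Piwil2: Tgagcaaactgggagacctacatagcaat

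By count, the other PIWI genes had less beyond their ends. Past Piwil4 there were 0 same-strand sequences in 10000 nt and 3 in 20000 nt. Past Piwil1 there were 3 in 1000 nt and 15 in 5000 nt, with 6 on the opposite strand. Of those 15, 6 matched no transcript. The first 1000 nt past Piwil1 held 3 ends per kb (0.619 to 8.77), against 8.58 per kb in its 3′ untranslated region (4.12 to 15.8). Within 20000 nt past Piwil1 there were 3.9 same-strand ends per kb, a value that includes sequences that match other genes. In the 5000 nt past the last Piwil1 match, sense sequences of the gene Rimbp2 were listed, on a strand that was not recorded. Of the 90 same-strand sequences within 20000 nt, 54 matched no transcript. Thinning with distance therefore cannot be read from the density of all ends. Of 3920 genes with 100 or more ends whose last exon could be placed, the median had 1 unmatched same-strand end in the 1000 nt past its transcript and 45.6% had 0. Piwil2, with 26, lay above 91.4% of them, and 8.57% had as many or more. The counts were not scaled by the density of each gene. Whether the sequences belong to a longer Piwil2 messenger RNA or to another transcript was not tested.

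**Figure D5:**
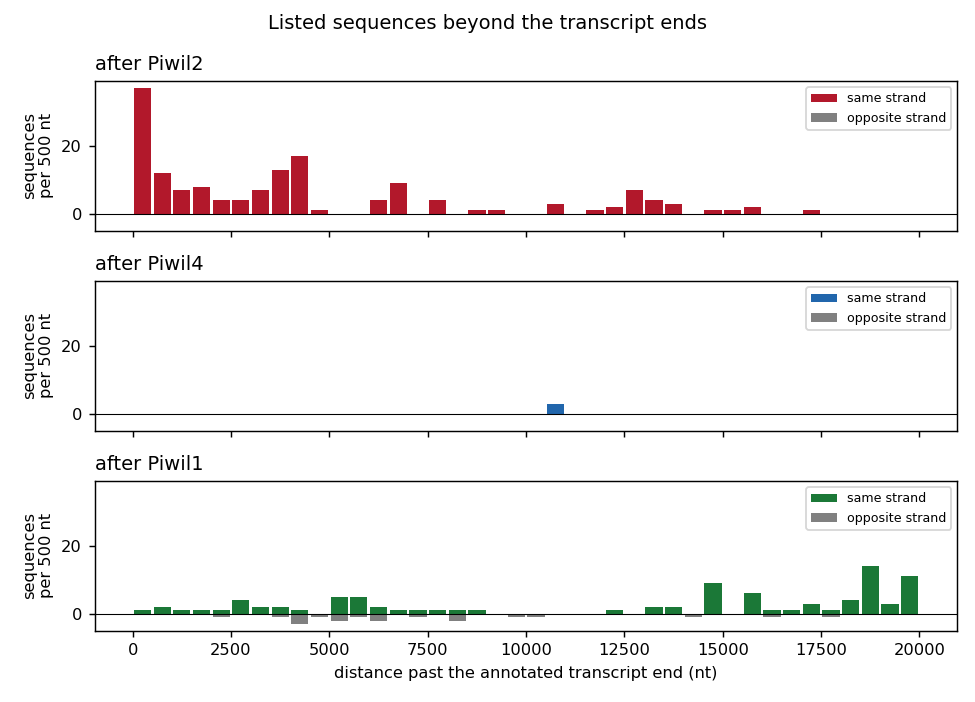
Listed sequences per 500 nt (y axis; same strand as the gene above 0, opposite strand below) by distance past the annotated transcript end in nt (x axis) for Piwil2, Piwil4 and Piwil1. After Piwil2 the first 500 nt hold 37 same-strand sequences and none lie on the opposite strand in 20000 nt; after Piwil4 the first 10000 nt are empty.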

How the data were processed

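MILI-bound small RNAs of 14-day testes were immunoprecipitated, eluted from a gel and made into libraries with an Illumina small RNA kit, per the labels' protocols. The submitters' processing notes name mm9 as genome build. No aligner, mismatch limit or read filter is given in the sources used. The authors' deposited table, per the file headers, holds each sequence with its chromosome, start, end and strand; these are genome positions, not read counts, in 1 list for all 4 libraries, with no library column. Every sequence was listed once, and its length equalled end minus start plus 1.

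All sequences were matched exactly, in both orientations, to the 141767 transcripts of GENCODE M21. That annotation is on GRCm38. Only its sequences, exon lengths, coding limits and chromosome names were used, and no coordinate was converted. On simulated data the matching recovered all 500 planted sequences and none of 500 that carried 1 changed base. The longest transcript gave ends per kb. Regions were planned on the transcript with the longest coding sequence. For Piwil4 that transcript has no annotated untranslated region, so its longest transcript (3304 nt) was used. Transcript ends were placed in mm9 from the listed positions of last-exon sequences.

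The members and lists were chosen with earlier results of these data known. The rule names the 3 members, the extremes of each list, the pathway gene nearest to each member and the fullest ends. Further genes named, the classes by sequences per end and the counts past the transcript ends were chosen after their values were seen. Gene pairs were compared with Fisher's exact test (2-sided) over distinct ends, with Benjamini-Hochberg adjustment over 12 tests; ends of 1 transcript are not replicates. Software was scipy 1.17.1, numba 0.67.0, pandas 2.3.3 and numpy 2.4.6, with matplotlib 3.10.9, under Python 3.11.15.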

Additional observations from a re-analysis of the deposited data

How the results depend on the processing

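Of the values recomputed under another setting, 49 could not change, because the setting left the same sequences and transcript. No PIWI sequence matched a gene searched later, and sequences shared with a gene searched earlier were not brought in. Every Piwil1 and Piwil4 sequence was 24 to 31 nt long. The alternative transcript was another one only for the ends per kb of Piwil4. These 49 values say nothing of stability. Nor do some of the other 65. Each Piwil1 end had 1 sequence. Counting sequences in place of ends thus could not alter its density, 5′ U share, A at position 10 or 3′ untranslated region share. Of the 65, 55 stayed within their interval or kept their direction and side of the threshold, and those Piwil1 values are among them. Another 8 moved, 1 reversed and 1 lost its call. The last is the excess of Piwil2 ends in the 3′ untranslated region over its share of length, 1.21-fold at first and 1.11-fold over starts clear of exon junctions, a setting chosen after seeing the data. Counting sequences in place of ends gave Piwil2 91.9 per kb and a 5′ U share of 64.2%. The difference in U after the 3′ end between Piwil4 and Piwil1 reversed from -5.33 to 3.90 percentage points, without passing the test in either setting. Keeping only ends with 2 or more sequences left 0 ends per kb in Piwil1, so no Piwil1 share could be had, 19.5 per kb in Piwil2 and 1.21 in Piwil4. Under it the 5′ U share of Piwil2 was 72.9%, U after the 3′ end of Piwil4 was 50%, and A at position 10 of Piwil4 was 0% of 4 ends. No gene pair passed the adjusted threshold under any setting tried. No paired analysis was possible because the table has no library columns, so no replicate could be left out either. With 22 ends each, Piwil1 and Piwil4 allow only wide intervals.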

Other observations

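Sequences of Piwil4 and Piwil1 often began with UGA, a description chosen after the values were seen and not tested. Of Piwil4 ends, 7 of 22 began with UGA (31.8%, 13.9 to 54.9%), and of Piwil1 ends 6 of 22 (27.3%, 10.7 to 50.2%). In Piwil2 it was 15 of 292 (5.14%, 2.90 to 8.33%). The trinucleotide makes up 2.39%, 2.17% and 1.77% of positions in the 3 transcripts. Over all protein-coding genes 9.13% of ends began with UGA. In 2059 genes with 15 to 30 ends it was 12.2% of ends, with 5% of these genes above 26.3%. In 1094 genes with 200 to 400 ends it was 8.71%, with 5% of these genes below 5.21%. Over all protein-coding genes it was 7.24% at ends with 1 sequence and 17.6% at ends with 4 or more, and in Piwil2 it was 4.59% at ends with 1 and 1 of 18 at ends with 4 or more. In this share Piwil2 lay above 4.97% of the genes with 100 or more ends.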
